A study of Rattus norvegicus with 10 samples.

Results

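Hepatocytes keep their identity through a small set of transcription factors, and they sense drugs and other foreign compounds through receptors that switch on the enzymes and transporters of detoxification. The genes described here were 9 such genes in rat liver, chosen by name. They were the nuclear receptor gene Hnf4a, the forkhead pioneer factor genes Foxa1, Foxa2 and Foxa3, the basic leucine zipper factor gene Cebpa, the homeobox gene Prox1, and the xenosensor genes Nr1i2 (PXR), Nr1i3 (CAR) and Ahr. Through the accessions on the array, 8 of the 9 obtained a probe, out of 13426 genes with a symbol. These 8 genes had 10 probes out of 40945 with a value on every array, since Hnf4a and Nr1i3 had 2 probes each. No probe was named Ahr through the gene table used here, and Ahr therefore has no value.

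HNF4A, the FOXA proteins and C/EBP alpha bind jointly at the regulatory regions of many liver genes, for plasma proteins, lipid transport and glucose and urea metabolism among others. PXR and CAR, which drugs, bile acids or other compounds can activate, pair with RXR. They induce cytochrome P450 enzymes of the Cyp3a and Cyp2b families, conjugating enzymes and transporters. The aryl hydrocarbon receptor pairs with ARNT and induces enzymes of the Cyp1 family.

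All rats were male Wistar rats. The 3 control rats received 0 Gy, the 3 TBI rats received total body irradiation from a 60Co source, labelled 6.5 Gy, and the 4 MASM + TBI rats had been given the matrine derivative MASM into the stomach (30 mg/kg a day for 3 days) before the same irradiation. No rats given MASM without irradiation are among these arrays, so MASM alone was not analysed here. The methods of the study give doses of 6 and 7 Gy and not the labelled one. Livers were taken 24 h after irradiation, and whole liver RNA of each rat was hybridised to 1 array of its own. In whole liver RNA, fewer cells of a type and less RNA per cell cannot be told apart.

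The heat map of the study names the control and TBI arrays the other way round from the deposited labels, and the labels were used here. Cdkn1a, the p53 target that blocks the cell cycle after DNA damage, was higher on the arrays labelled TBI by 5.36 on the log2 scale (SE 0.27, adjusted p = 0.00013, limma) and on the MASM + TBI arrays by 4.80 (SE 0.25, adjusted p = 0.000146). All arrays detected the 7 hepatocyte markers well above background, and 0 of the markers passed the test in any comparison. Their summed signal was 825800 to 885200 in control rats, 749900 to 914200 in TBI rats and 849600 to 907500 in MASM + TBI rats. Of 7 T lymphocyte markers, 3 were called lower after TBI (Cd2, Cd3e and Cd3g) and 2 in MASM + TBI rats (Cd3e and Cd3g), with summed signals of 596 to 813, 315 to 484 and 234 to 428 in the 3 groups. Cd3e was well above background on no array, while Cd2 and Cd3g were above it on 3 of 3 control arrays. Of 7 stellate cell markers (Lrat) and of 3 measured B lymphocyte markers (Cd79b), 1 each was called lower in both comparisons with control. The summed stellate cell signals were 12520 to 14750, 9406 to 18130 and 9503 to 10720. Over all probes 5.63% were called after TBI and 2.99% in MASM + TBI rats against control. No marker of endothelium, Kupffer cells or erythroid cells was called, with summed endothelial signals of 16370 to 20760, 23450 to 26590 and 20190 to 24740, Kupffer cell signals of 47610 to 67750, 47270 to 88140 and 37620 to 46680 and erythroid signals of 1800 to 4431, 905 to 2403 and 952 to 1498 in the same order. Non-control spots well above background made up 57.2% to 59.9% of control arrays, 64.1% to 70.1% of TBI arrays and 56.2% to 60.2% of MASM + TBI arrays. The part of these shifts in the results was not tested. The control arrays and that of MASM + TBI rat 3 lay on slide 1, the TBI arrays on slide 2 and the other MASM + TBI arrays on slide 3, so TBI and slide cannot be told apart.

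The promoters of Nr1i2 and Nr1i3 are shown because these genes were the 2 that passed the test. Each run gives the 250 bases before the start of the RefSeq gene model on GRCr8, both on the plus strand, for Nr1i2 at chr11:75965467-75965716 and for Nr1i3 at chr13:86165170-86165419. Capitals mark matches to short motifs, searched on both strands.
Nr1i2: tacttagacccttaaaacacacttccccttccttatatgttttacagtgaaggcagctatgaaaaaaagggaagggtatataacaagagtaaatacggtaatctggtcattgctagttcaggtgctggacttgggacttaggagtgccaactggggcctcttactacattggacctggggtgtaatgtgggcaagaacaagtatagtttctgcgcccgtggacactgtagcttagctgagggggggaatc
Nr1i3: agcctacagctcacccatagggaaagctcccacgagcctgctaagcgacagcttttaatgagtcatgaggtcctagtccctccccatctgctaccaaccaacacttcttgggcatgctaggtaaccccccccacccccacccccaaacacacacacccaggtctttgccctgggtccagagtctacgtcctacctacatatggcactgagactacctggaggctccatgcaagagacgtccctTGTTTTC
The motifs were AGGTCA (nuclear receptor half-site), TGTTTNC (forkhead), TTGCNNAA (C/EBP), GTTAAT (HNF1 half-site), GCGTG (the core bound by AHR) and TATAAA. Nr1i3 held 1 forkhead match, 7 bases before the start, the upstream of 2 annotated Hnf4a promoters held 1, 206 bases before its start, and none of the 6 motifs was found in the Nr1i2 window. Forkhead matches occurred in 18.3% of 33469 promoter windows of the same length. The downstream Hnf4a promoter held 2 HNF1 half-sites, 90 and 83 bases before the start, a motif found in 6.45% of all windows. Foxa3 and Cebpa each held 1 TATAAA match, 82 and 35 bases before the start, and Foxa2 held 2 overlapping ones (12.9% of all windows held this motif). The table held promoters of 7 of the 9 genes.

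TBI against control asks how these genes differed a day after lethal irradiation. Both drug-sensing receptors fell, Nr1i3 by 0.98 (SE 0.21) and Nr1i2 by 0.56 (SE 0.09) on the log2 scale, and the other 6 genes did not pass the test. Thus 2 of 8 genes were called at an adjusted p under 0.05, where 5.63% of all probes were called. By the thresholds of the study (unadjusted p under 0.05 and a change of at least 1.5-fold), with the p of limma, 3 of 8 genes were called, against 12.6% of all probes. These 3 were Nr1i3, Foxa2 and Foxa3. With the p of the study's t-test, Foxa3 was the 1 of 8 called, against 7.08% of all probes. After adjustment that t-test called very few probes over the whole array. A gene it did not call, or a call lost by it, therefore says little about that gene. At an unadjusted p under 0.05 alone, 6 of 8 were called by limma, against 23.5% of all probes. The groups did not overlap for 5 of the 8 genes, 2 higher and 3 lower after TBI, and for 30.3% of all probes. The median difference was -0.22 over the 8 genes and -0.03 over all probes.

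**Figure D1:**
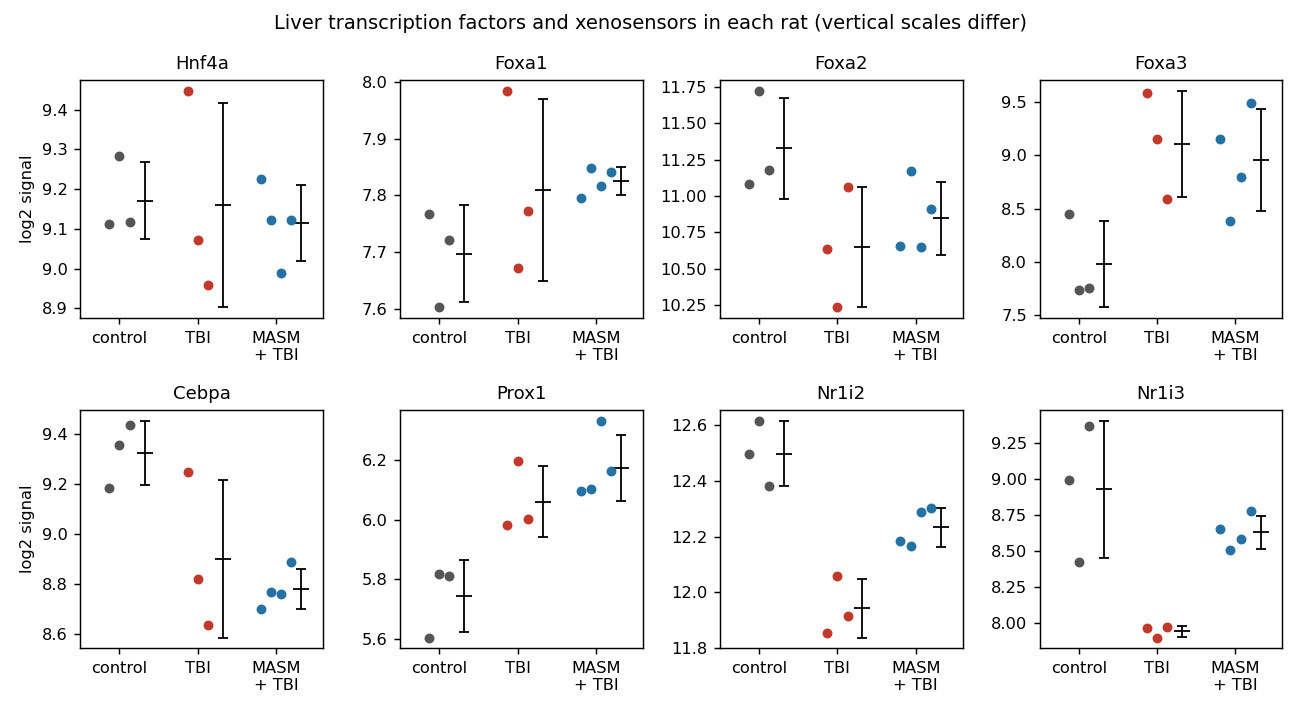
Log2 signal (vertical axes, scales differ) of the brightest probe of each of the 8 genes with a probe, in 3 control, 3 TBI and 4 MASM + TBI rats. Points are rats and bars are the mean ± SD. All TBI rats lie below all control rats for Nr1i2, Nr1i3 and Foxa2, and above them for Foxa3 and Prox1.

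Nr1i3 encodes CAR, the receptor that induces Cyp2b enzymes. Its brightest probe had log2 signals of 8.99, 8.43 and 9.37 in the control rats, 7.96, 7.90 and 7.97 in the TBI rats and 8.65, 8.51, 8.58 and 8.78 in the MASM + TBI rats. The TBI rats were below every rat of both other groups and lay within 0.07 of each other, while the controls spanned 0.94. The MASM + TBI rats lay inside the range of the controls. The second probe was lower in TBI rats than in controls by 0.88 (SE 0.19, adjusted p = 0.0352, limma). That call was kept only without control rat 2 or MASM + TBI rat 3 among the rats left out (otherwise adjusted p from 0.0512 to 0.0848). The brightest probe was 1.98-fold lower in TBI rats than in controls (adjusted p = 0.0327, limma). Its call was lost without control rat 1 or 3, without any single TBI rat, or without MASM + TBI rat 1, with adjusted p-values from 0.0548 to 0.0887. After the normexp background correction the signal fell by 0.64 on the log2 scale (adjusted p = 0.0390). The call was also lost in a model of only these 2 groups (adjusted p = 0.109, limma) and by the study's t-test (adjusted p = 0.363).

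Nr1i2 encodes PXR, the receptor that induces Cyp3a enzymes. Its log2 signals were 12.50, 12.62 and 12.38 in the control rats, 11.85, 12.06 and 11.92 in the TBI rats and 12.18, 12.17, 12.29 and 12.30 in the MASM + TBI rats. The 3 groups did not overlap, with control highest, MASM + TBI between and TBI lowest. The signal was 1.47-fold lower in TBI rats than in controls (adjusted p = 0.0145, limma). The call held with each of the 10 rats left out in turn, with adjusted p-values from 0.0199 to 0.0483. It was lost in a model of only these 2 groups (adjusted p = 0.0692, limma) and by the study's t-test (adjusted p = 0.228).

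The 3 FOXA genes, whose products open chromatin at liver enhancers, had differences of unlike sign and size, and 0 of the 3 passed the adjusted test by limma. Foxa3 had log2 signals of 8.45, 7.74 and 7.75 in the control rats, 9.59, 9.15 and 8.59 in the TBI rats and 9.15, 8.39, 8.80 and 9.49 in the MASM + TBI rats. All TBI rats were above all controls, with a difference of 1.13 (SE 0.35, adjusted p = 0.103, limma), which passed the thresholds of the study, with either p, but not the adjusted test. Foxa2 had log2 signals of 11.08, 11.72 and 11.18 in the control rats, 10.64, 10.24 and 11.07 in the TBI rats and 10.65, 11.17, 10.65 and 10.91 in the MASM + TBI rats. All TBI rats were below all controls, by a gap that was small for TBI rat 3, with a difference of -0.68 (SE 0.25, adjusted p = 0.154, limma). Foxa1 had log2 signals of 7.60 to 7.77 in the control rats, 7.67 to 7.98 in the TBI rats and 7.80 to 7.85 in the MASM + TBI rats. Its difference between TBI and control was 0.11, with a 95% interval of -0.10 to 0.33.

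Cebpa was on average lower and Prox1 higher after TBI, and neither passed the test. Cebpa, whose product drives metabolic genes of the mature hepatocyte, had log2 signals of 9.18, 9.35 and 9.43 in the control rats, 9.25, 8.82 and 8.63 in the TBI rats and 8.70, 8.77, 8.76 and 8.89 in the MASM + TBI rats. TBI rat 1 lay inside the range of the controls and the other TBI rats below it, and the difference between TBI and control was -0.42 (SE 0.15, adjusted p = 0.142, limma). Without TBI rat 1 it was -0.60 and passed the test (adjusted p = 0.0286). Prox1, whose product acts in liver development and metabolism and also marks lymphatic endothelium, had log2 signals of 5.60, 5.82 and 5.81 in the control rats, 5.98, 6.20 and 6.001 in the TBI rats and 6.10, 6.10, 6.33 and 6.16 in the MASM + TBI rats. Every irradiated rat was above every control rat, and the difference between TBI and control was 0.32 (SE 0.10, adjusted p = 0.117, limma). It was 0.10 after the normexp background correction. The summed signal of 3 lymphatic endothelial markers was 313 to 531 in control rats, 563 to 1571 in TBI rats and 333 to 524 in MASM + TBI rats, and Pdpn was well above background on no array. Most of that sum was Ccl21, which differed between TBI and control by 1.51 (adjusted p = 0.0695, limma), while Flt4 differed by 0.12 (adjusted p = 0.785). The part of these cells in the Prox1 signal was not tested.

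Hnf4a, whose product stands at the centre of the hepatocyte network, had 2 probes that disagreed. The brightest probe had log2 signals of 9.11, 9.28 and 9.12 in the control rats, 9.45, 9.07 and 8.96 in the TBI rats and 9.23, 9.12, 8.99 and 9.12 in the MASM + TBI rats. The groups overlapped, and the difference between TBI and control was -0.01 with a 95% interval of -0.31 to 0.29. With scaling to the 75th percentile it was 0.02, so no direction is given. The other probe had log2 signals of 8.87, 8.59 and 8.82 in the control rats, 8.48, 8.29 and 8.00 in the TBI rats and 8.15, 8.43, 8.24 and 8.22 in the MASM + TBI rats. All irradiated rats were below all controls on this probe. The difference was -0.50 for TBI rats (SE 0.14, adjusted p = 0.0775, limma) and -0.50 for MASM + TBI rats (SE 0.13, adjusted p = 0.0894), and neither passed the test. That for MASM + TBI passed it without TBI rat 3 (adjusted p = 0.0485). Which transcripts each probe reads was not determined here. The 2 probes of Nr1i3 gave like differences in each comparison.

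With slide as a random block, Foxa3 (adjusted p = 0.0277), Cebpa (0.0480), Prox1 (0.0498) and the second Hnf4a probe (0.0211) also passed the test for TBI against control, and that probe for MASM + TBI (0.0368). Slide 2 held all the TBI arrays and no others, and the estimated correlation within slide was -0.13, which by construction narrows the SE between slides. Calls gained in that model, here and in the comparisons of MASM + TBI rats, therefore add no support.

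**Figure D2:**
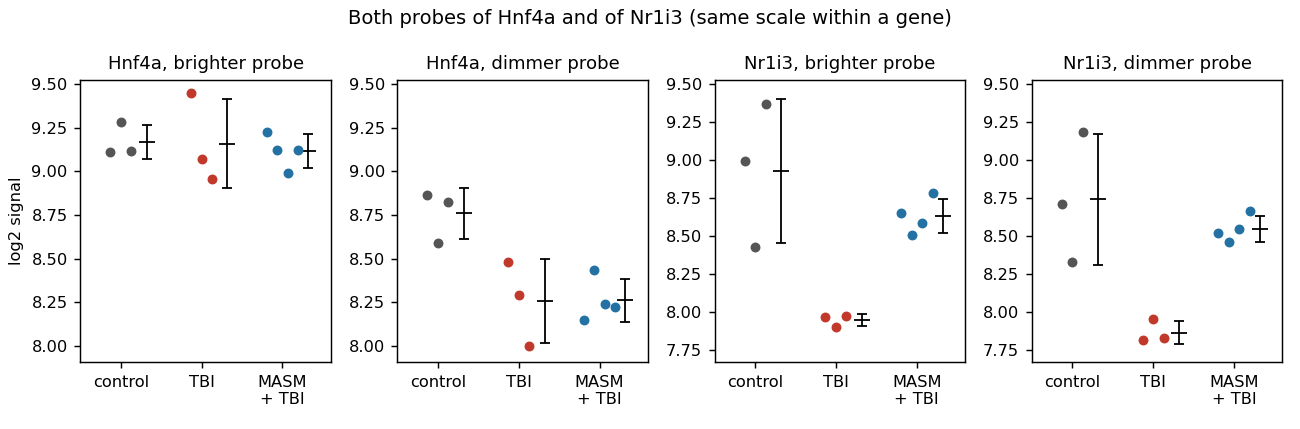
Log2 signal (vertical axes) of both probes of Hnf4a and both probes of Nr1i3 in 3 control, 3 TBI and 4 MASM + TBI rats, with the mean ± SD. The groups overlap on the brighter Hnf4a probe and separate controls from irradiated rats on the dimmer one, while both Nr1i3 probes place the TBI rats lowest.

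MASM + TBI against control asks what remained different from control in irradiated rats given MASM. None of the 8 genes passed the test. By limma 0 of 8 had an adjusted p under 0.05, against 2.99% of all probes. At an unadjusted p under 0.05 alone, 4 of 8 were called, against 17% of all probes. The study's t-test called 0 of 8 after adjustment, when it called very few probes at all. At an unadjusted p under 0.05 and a change of at least 1.5-fold, Foxa3 alone was called, 1 of 8 against 8.06% of all probes by limma and 5.75% by the study's t-test, which called the same gene. Foxa3 differed by 0.98 (SE 0.33, adjusted p = 0.170, limma), with MASM + TBI rat 2 inside the range of the controls. Cebpa differed by -0.54 (SE 0.14, adjusted p = 0.0886) and Prox1 by 0.43 (SE 0.10, adjusted p = 0.0582), and neither overlapped with control. In all, 4 of 8 genes did not overlap, against 18.3% of all probes. Cebpa passed the test after the normexp background correction, in a model of these 2 groups, with slide as a random block, and without TBI rat 1 (adjusted p from 0.0279 to 0.0362). Prox1 passed it when dim probes were left out (adjusted p = 0.0467) and with slide as a random block (adjusted p = 0.0323), and its difference was 0.16 after the normexp correction.

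Both receptors differed less from control in MASM + TBI rats than in TBI rats, and neither difference passed the test. Nr1i2 differed from control by -0.26 (SE 0.09, adjusted p = 0.159, limma), with every MASM + TBI rat below every control, and Nr1i3 by -0.30 (SE 0.19, adjusted p = 0.514), with overlap. With scaling to the 75th percentile the Nr1i2 difference was -0.12, and the Nr1i3 difference was -0.55 without control rat 2 and -0.08 without control rat 3. Foxa2 differed by -0.48 (95% interval -1.02 to 0.06, and -0.28 without control rat 2), Foxa1 by 0.13 (-0.07 to 0.33) and Hnf4a by -0.06 (-0.34 to 0.23). With slide as a fixed block, which compares MASM + TBI rat 3 with the controls on the same slide, the differences were -0.56 for Cebpa, 0.59 for Prox1, 0.82 for Foxa3, -0.68 for Foxa2, -0.21 for Nr1i2, -0.34 for Nr1i3, 0.12 for Foxa1 and -0.18 for Hnf4a. None of them passed the test in that model, which has 1 array of MASM + TBI for this comparison.

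MASM + TBI against TBI asks which genes differed between irradiated rats with and without MASM. Again 0 of 8 genes passed the test at an adjusted p under 0.05 (limma), against 1.63% of all probes. At an unadjusted p under 0.05 alone, 2 of 8 were called, against 17% of all probes. The study's t-test called 0 of 8 after adjustment, when it called very few probes at all. At an unadjusted p under 0.05 and a change of at least 1.5-fold, 1 of 8 genes was called, Nr1i3, against 7.98% of all probes by limma and 4.03% by the study's t-test, which called the same gene. Nr1i3 was higher in every MASM + TBI rat than in every TBI rat, by 0.69 (SE 0.19, adjusted p = 0.133), which is 1.61-fold, and its second probe by 0.68 (SE 0.18, adjusted p = 0.112). It passed the test with scaling to the 75th percentile, in a model of these 2 groups, with slide as a random block, and without control rat 2 (adjusted p from 0.0365 to 0.0489), and was 0.43 after the normexp correction. With scaling to the 75th percentile many more probes of the whole array were called, and the median difference over all probes was 0.08. Nr1i2 was also higher in every MASM + TBI rat, by 0.29 (SE 0.09, adjusted p = 0.146). Thus 2 of 8 genes did not overlap, against 18.5% of all probes. For the other 6 genes the groups overlapped, with differences from -0.15 for Foxa3 (95% interval -0.90 to 0.60) to 0.20 for Foxa2 (-0.34 to 0.74). The comparisons share groups, so a fall after TBI and a rise against TBI rest partly on the same 3 TBI arrays.

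**Figure D3:**
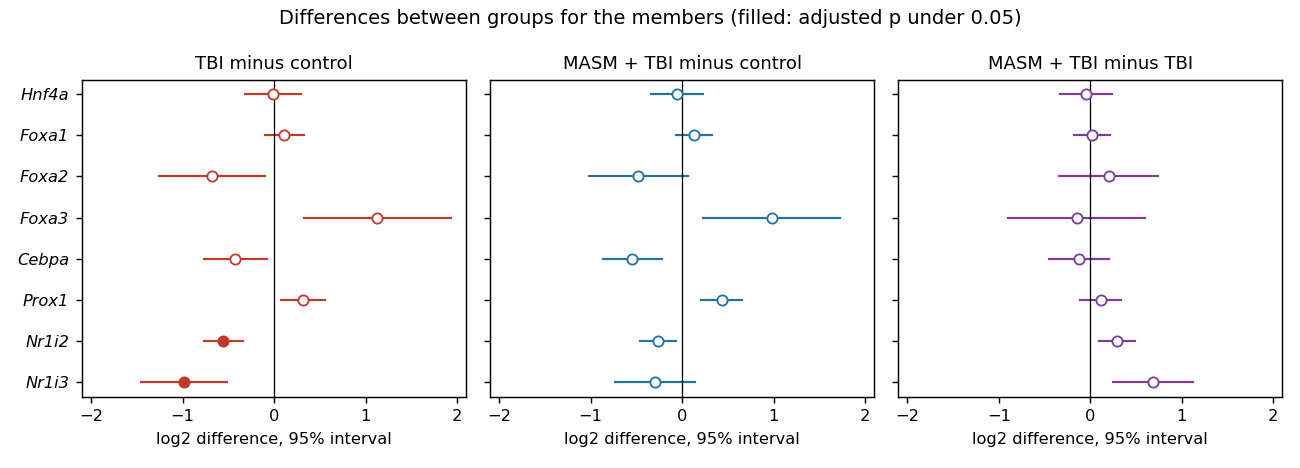
Log2 difference (horizontal axes) with its 95% interval for the 8 genes in each of 3 comparisons. Filled points, Nr1i2 and Nr1i3 for TBI minus control, have an adjusted p under 0.05, and no other point is filled.

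Genes with the most similar course over the 10 arrays were sought for the 3 members with the lowest p across the groups, among 8437 genes well above background on every array. The measure was the mean absolute difference of centred log2 signals, chosen on these arrays and given as a description. For Nr1i2 the nearest were Pink1 (0.06), Ing1 (0.07) and Mtarc1 (0.07). For Nr1i3 they were Zfp52 (0.16), Cyp2b1 (0.16) and Ift88 (0.17). For Prox1 they were Mrpl49 (0.06), Bud23 (0.07) and Tcn2 (0.07).

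Among 15 measured targets of PXR and CAR, 3 fell and 1 rose after TBI, 1 fell and 3 rose in MASM + TBI rats against control, and 2 rose in MASM + TBI rats against TBI rats. These were 4, 4 and 2 of 15, against 5.63%, 2.99% and 1.63% of all probes. The median difference over these 15 genes was 0.08, 0.18 and 0.20 in the same order, and over all probes it was -0.03, 0.0024 and 0.04. The study's t-test called 0 of the 15 in any comparison after adjustment, when it called very few probes at all.

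Cyp2b1, the classical CAR-induced P450, had log2 signals of 13.11, 12.93 and 13.58 in the control rats, 12.60, 12.31 and 12.41 in the TBI rats and 13.18, 13.10, 12.74 and 13.03 in the MASM + TBI rats. The TBI rats were lowest, below all other rats, and the fall after TBI was 0.76 (SE 0.18, adjusted p = 0.0491, limma). In MASM + TBI rats it differed from TBI by 0.57 (SE 0.17, adjusted p = 0.148). Of 3 further Cyp2b1 probes, 2 gave differences of -2.02 and -1.11 after TBI (adjusted p = 0.0566 and 0.0885) and the third gave -0.03. Cyp2b1 has a near-identical paralogue, Cyp2b2, and the probes may not separate them. Its call was lost in a model of only these 2 groups (adjusted p = 0.113), on the deposited value table (adjusted p = 0.0503) and with any 1 rat left out other than MASM + TBI rat 3 (adjusted p from 0.0529 to 0.118).

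Abcc2, the canalicular exporter of conjugated bilirubin and drugs, had log2 signals of 14.39, 14.19 and 14.30 in the control rats, 13.39, 13.29 and 13.40 in the TBI rats and 13.39, 13.68, 13.69 and 13.49 in the MASM + TBI rats. Both irradiated groups were below all controls, by 0.93 in TBI rats (SE 0.10, adjusted p = 0.00312, limma) and by 0.73 in MASM + TBI rats (SE 0.10, adjusted p = 0.00833). With scaling to the 75th percentile the call in MASM + TBI rats was lost (-0.60, adjusted p = 0.0709). Abcb1a, a P-glycoprotein drug exporter, had log2 signals of 4.86, 4.38 and 4.32 in the control rats, 3.11, 3.42 and 3.78 in the TBI rats and 5.47, 5.42, 5.71 and 5.52 in the MASM + TBI rats. The groups did not overlap, with MASM + TBI highest and TBI lowest. It fell by 1.08 after TBI (SE 0.20, adjusted p = 0.0208), and was 4.27-fold higher in MASM + TBI rats than in TBI rats (log2 difference 2.09, SE 0.18, adjusted p = 0.00326) and 2.01-fold higher than in controls (adjusted p = 0.0286). Its signal was low, and 2 of 3 TBI arrays were well above background. After the normexp background correction its difference after TBI shrank to -0.15 (adjusted p = 0.118) and those of MASM + TBI to 0.24 against control and 0.39 against TBI. The call after TBI was also lost in a model of 2 groups (adjusted p = 0.0854) and without TBI rat 2 (0.0543), and that of MASM + TBI against control without control rat 2 or 3 or without any single MASM + TBI rat (0.0552 to 0.110).

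Ugt2b1, a glucuronosyltransferase, had log2 signals of 13.38, 13.17 and 13.12 in the control rats, 13.39, 13.32 and 13.19 in the TBI rats and 14.19, 14.52, 14.20 and 14.16 in the MASM + TBI rats. Every rat given MASM was above every other rat, by 1.04 over control (SE 0.11, adjusted p = 0.00332, limma) and by 0.97 over TBI (SE 0.11, adjusted p = 0.00818). Ces2c, a carboxylesterase, had log2 signals of 7.22, 7.72 and 7.74 in the control rats, 8.48, 9.24 and 9.52 in the TBI rats and 9.43, 9.18, 9.28 and 9.21 in the MASM + TBI rats. Both irradiated groups were above all controls, by 1.52 in TBI rats (SE 0.26, adjusted p = 0.0155) and by 1.71 in MASM + TBI rats (SE 0.24, adjusted p = 0.00985). After the normexp background correction these differences were 0.96 and 1.11, both called, and in a model of 2 groups the call after TBI was lost (adjusted p = 0.0789). With slide as a fixed block, MASM + TBI differed from control by 1.72 for Ces2c, 0.98 for Ugt2b1, 1.19 for Abcb1a and -0.60 for Abcc2, and none of the 4 passed the test in that model (adjusted p from 0.0585 to 0.131), in which only MASM + TBI rat 3 shares a slide with the controls. The measured Cyp3a genes were looked at after their values were seen, and none of them passed the test. Cyp3a2 differed by -0.12 after TBI (adjusted p = 0.745, limma) and by 0.18 in MASM + TBI rats against control (adjusted p = 0.702). Cyp3a9 differed by 1.09 (adjusted p = 0.388) and 1.27 (adjusted p = 0.386). For Cyp3a9 every MASM + TBI rat was above every control, while the TBI rats overlapped with the controls. Cyp3a18 differed by -0.19 and 0.00016, and the listed Cyp3a23-3a1 had no probe.

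**Figure D4:**
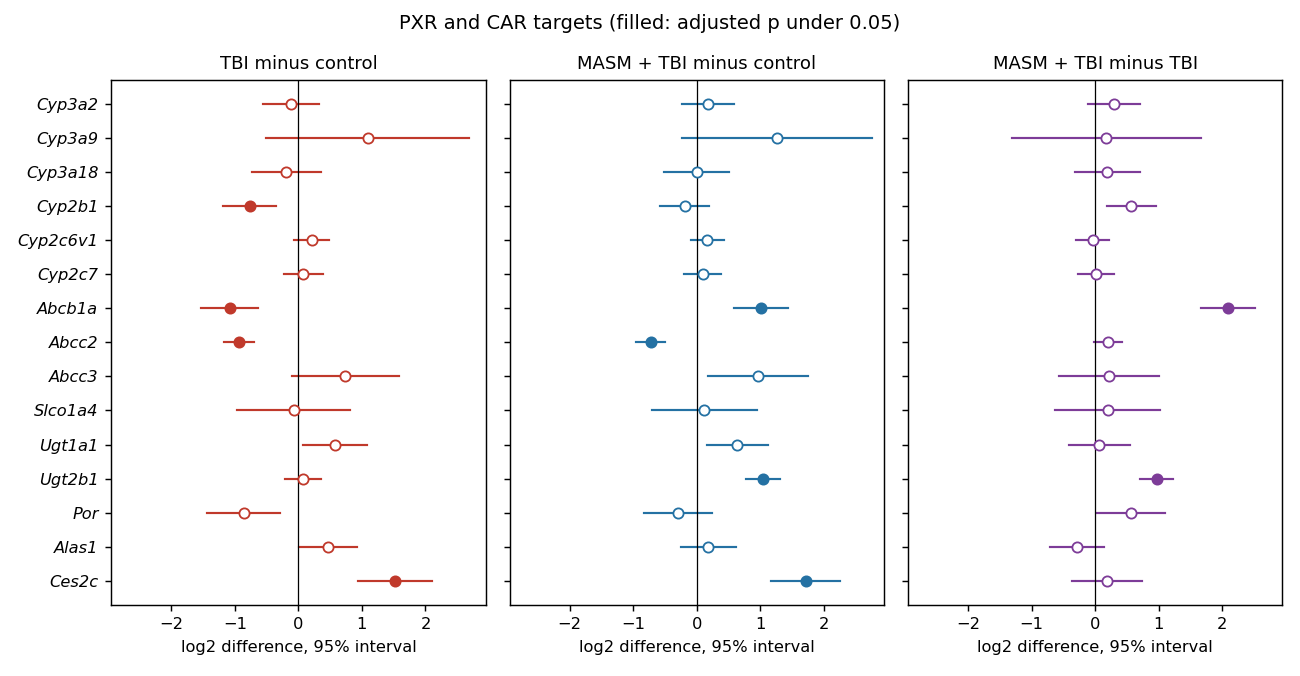
Log2 difference (horizontal axes) with its 95% interval for 15 targets of PXR and CAR in each of 3 comparisons. Filled points have an adjusted p under 0.05. Abcb1a lies at -1.08, 1.01 and 2.09 from left to right, and the other filled points lie on 1 side of 0 for each gene.

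**Figure D5:**
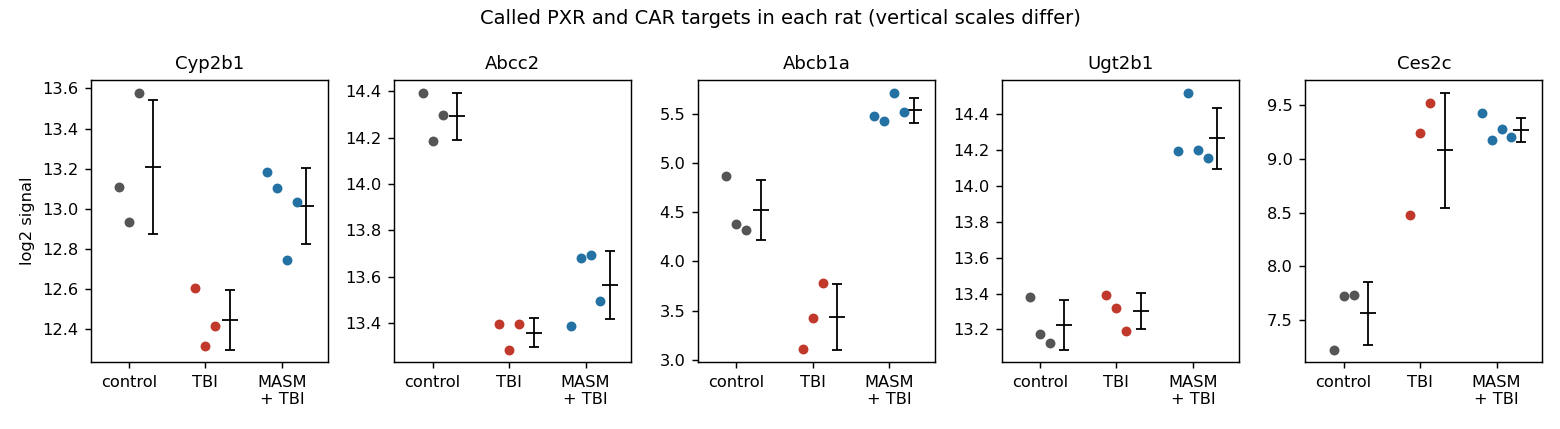
Log2 signal (vertical axes, scales differ) of the 5 called targets of PXR and CAR in 3 control, 3 TBI and 4 MASM + TBI rats, with the mean ± SD. Cyp2b1 is lowest in TBI rats, Abcc2 is lower and Ces2c higher in both irradiated groups, and Ugt2b1 and Abcb1a are highest in MASM + TBI rats.

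Of 7 measured targets of the aryl hydrocarbon receptor, 0 passed the test in any comparison by limma, against 5.63%, 2.99% and 1.63% of all probes. The study's t-test, which called very few probes, also called 0 of the 7 after adjustment. At an unadjusted p under 0.05 with a change of at least 1.5-fold, 3 were higher and 1 lower after TBI, against 12.6% of all probes. By the same rule 2 were higher and 2 lower in MASM + TBI rats than in controls (8.06% of all probes), and 1 was lower than in TBI rats (7.98%). The 3 higher after TBI were Nqo1 (1.05), Tiparp (0.83) and Cyp1b1, which was well above background on 0 of 3 control arrays and 1 of 3 TBI arrays. The 1 lower was Cyp1a2, below every control in every irradiated rat. It differed by -0.63 after TBI and -0.62 in MASM + TBI rats (adjusted p = 0.104 and 0.123, limma), and its second probe by -0.53 and -0.37, with overlap. Nqo1 and Tiparp were higher in MASM + TBI rats than in controls by 1.37 and 0.59. Cyp1a1, the best known of these targets, was well above background on 2 of 3 control arrays, 2 of 3 TBI arrays and 0 of 4 MASM + TBI arrays. These genes were looked at after their values were seen.

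Among 15 other liver transcription factors, 1 rose and 1 fell after TBI, 2 of 15 against 5.63% of all probes, with 5 at an unadjusted p under 0.05 against 23.5%. In the other comparisons 0 passed the test by limma, against 2.99% and 1.63% of all probes. There 2 and 3 had an unadjusted p under 0.05, against 17% of all probes in each. The study's t-test called 0 of the 15, and 0 of the partners and coregulators, after adjustment, when it called very few probes at all. Nr1h4, the bile acid receptor FXR, had log2 signals of 9.02 to 9.21 in control rats and 9.63 to 9.89 in TBI rats, which did not overlap, and rose by 0.66 (SE 0.15, adjusted p = 0.0431, limma). Nr5a2, which acts with it on bile acid and cholesterol genes, had log2 signals of 9.55 to 9.70 in control rats and 9.13 to 9.26 in TBI rats and fell by 0.45 (SE 0.10, adjusted p = 0.0353). The Nr1h4 call was kept only without MASM + TBI rat 1 or 3 and the Nr5a2 call only without MASM + TBI rat 1, 2 or 3, with adjusted p-values up to 0.114 and 0.0978 when another rat was left out. In a model of 2 groups neither call was kept (adjusted p = 0.0586 and 0.0730). Of 11 partners and coregulators with a probe, 1 passed the test after TBI, against 5.63% of all probes, and 7 had an unadjusted p under 0.05, against 23.5%. In the other comparisons 0 passed it by limma, against 2.99% and 1.63% of all probes. There 4 and 2 had an unadjusted p under 0.05, against 17% of all probes in each. The gene called after TBI was Nrip1, for a corepressor, which rose by 0.53 (SE 0.13, adjusted p = 0.0492), while its second probe gave 0.25 (adjusted p = 0.428). With any single rat left out its adjusted p was 0.05004 to 0.145 and the call was lost, as it was after the normexp correction (a difference of 0.26, adjusted p = 0.0827) and in a model of 2 groups (0.116). By the thresholds of the study Nrip1 was not called after TBI and 1 of the 11 was, against 12.6% of all probes, the corepressor gene Nr0b2 (SHP), looked at after its values were seen. Nr0b2 was lower in every TBI rat than in every control, by a difference of -1.57 (SE 0.41, adjusted p = 0.0636, limma). Rxra had no probe through the gene table. The measured effector genes of the hepatocyte, such as those for albumin, apolipoproteins and clotting factors, numbered 24. By limma 0 of them passed the test in any of the 3 comparisons, against 5.63%, 2.99% and 1.63% of all probes. The study's t-test, which called very few probes, also called 0 of the 24 after adjustment. At an unadjusted p under 0.05 with a change of at least 1.5-fold, 2 were higher after TBI, 4 were higher in MASM + TBI rats against control and 1 was lower against TBI, where 12.6%, 8.06% and 7.98% of all probes were called. Their median difference was 0.04 after TBI, 0.10 in MASM + TBI rats against control and 0.06 against TBI.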

How the data were processed

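The authors deposited background-subtracted Cy3 intensity values of each spot from Agilent Feature Extraction 10.7.3.1, without normalization between arrays. The array files name probes by accession, and symbols came from RefSeq tables (GRCr8), which named 16968 of 41012 probes. Control spots (1639 per array) and outlier spots were left out, and 0 spots were saturated. After log2 transformation and quantile normalization, a probe took the mean of its spots.

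Group means were fitted to all 10 arrays by limma (version 3.58.1, R 4.3.3, prior degrees of freedom 1.43), two-sided, with Benjamini-Hochberg adjustment over 40945 probes. A gene was called at an adjusted p under 0.05 on its brightest probe. Beyond the members with all their probes, named genes were up to 4 called genes per list and comparison with the largest difference, where every array of the brighter group measured them well above background, and the genes nearest in profile to 3 members. The members and lists were chosen with earlier results of these data known. Replicates carry only a number in the labels, so p-values measure the spread between these samples, and the number of arrays limits the precision. Alternatives were scaling, background correction (normexp, offset 50, on median pixel intensities), the deposited value table, filtering of dim probes, 2-group models, the t-test that the results of the study name (run here as Welch's test on log2 values and called by its adjusted p, whereas the study used unadjusted p-values and its methods name another test; at the thresholds of the study it called 1, 1 and 1 members), a robust prior with a trend, replicate number or slide as a block, and leaving out each rat. The fits were tested on simulated data. Plots used matplotlib 3.10.9 in Python 3.11.15.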

Additional observations from a re-analysis of the deposited data

How the results depend on the processing

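The number of members called for TBI against control, 2, was 0 in a model of only the 2 groups, 0 by the study's t-test and 5 with slide as a random block (correlation within slide -0.13), and 1 to 2 with a rat left out. For MASM + TBI against control the count of 0 became 1 with the normexp correction, 1 without dim probes, 1 in a model of 2 groups and 2 with slide as a random block, and was 0 to 1 with a rat left out. For MASM + TBI against TBI it became 1 with scaling to the 75th percentile, 1 in a model of 2 groups and 1 with slide as a random block, and was 0 to 1 with a rat left out. With the replicate number as a block (replicate block) it was 0, 0 and 0 in the 3 comparisons, and all called probes numbered 1053, 298 and 22, against 2305, 1225 and 666 without it. Same-numbered rats correlated at -0.13 to 0.17 over 9 pairs, and the best partner had the same number in 8 of 18 cases, so the numbers were not taken as pairs.

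Called probes over the whole array ran from 10 (the study's t-test) to 7458 (scaling to the 75th percentile) for TBI against control, from 40 (the study's t-test) to 2852 (slide as a random block) for MASM + TBI against control, and from 4 (the study's t-test) to 5459 (scaling to the 75th percentile) for MASM + TBI against TBI. Out of 40945 probes the study's t-test thus called almost none after adjustment, so genes that it did not call say little. Members gained with scaling to the 75th percentile against TBI, or with slide as a random block against control, stand beside these larger counts.

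The brightest Hnf4a probe changed sign for TBI against control with scaling to the 75th percentile (0.021), the normexp correction (0.0045) and slide as a random block (0.0062). With a rat left out it ran from -0.156 to 0.0888, for MASM + TBI against control from -0.0928 to 0.000163 and against TBI from -0.145 to 0.100. Against TBI, leaving out a rat also turned Foxa1 (-0.0528 to 0.103), Foxa2 (-0.00322 to 0.409), Foxa3 (-0.411 to 0.0883) and Cebpa (-0.254 to 0.0527). None of these differences was called, and the cause was not tested. Nr1i2 and Nr1i3 kept their direction in every comparison under every alternative. Among the calls of other named genes, those kept with the replicate block were Abcc2, Ces2c and Cdkn1a after TBI, and Ugt2b1 and Cdkn1a in MASM + TBI rats against control.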
